A study of Mus musculus with 6 samples.

Results

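The 10 genes described here encode nuclear receptors, their coactivators and a mitochondrial DNA factor that set the oxidative metabolism of the heart. They are the peroxisome proliferator-activated receptors (PPARs) Ppara, Ppard and Pparg, the PGC-1 coactivators Ppargc1a and Ppargc1b, the estrogen-related receptors (ERRs) Esrra, Esrrb and Esrrg, the retinoid X receptor Rxra and the mitochondrial transcription factor Tfam. They were taken by gene symbol, and all 10 were found among the 17447 rows of the count table. The further family members Pprc1, Rxrb and Rxrg were read beside them so that each family could be ranked. RNA was sequenced from whole heart tissue of wild-type mice, 3 sham-operated and 3 with chronic kidney disease (CKD) from surgical removal of most kidney tissue. Sham mice were anaesthetised and had the abdomen opened and the kidneys exposed, with no tissue taken. All 6 libraries carry the same batch label, and the sources used here do not state strain, sex or age. Nothing in the labels beyond the replicate numbers says that the samples are separate animals, so the spread given here may be technical.

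PPARs bind DNA as pairs with an RXR and are switched on by fatty acids and their derivatives, and in heart muscle PPARα and PPARδ are known for raising genes of fatty acid uptake and oxidation. ERRs bind DNA without a known natural hormone and act on genes of the respiratory chain and the citric acid cycle. PGC-1 proteins do not bind DNA themselves but dock on PPARs, ERRs and the nuclear respiratory factors NRF-1 and GABP, and TFAM packages mitochondrial DNA and starts its transcription.

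Before any level was read, the match between gene names and values was checked in both groups. Sham columns correlated with each other at a Spearman rho of 0.982 to 0.985 over genes, and with CKD columns at -0.0586 to -0.0528. Genes are not independent replicates, so these values carry no p. Under the label Esrra the sham columns held 1451, 1768 and 1819 counts and the CKD columns 4, 5 and 3. Under Tfam, which every cell with mitochondrial DNA needs, they held 452, 488 and 598 counts against 0 in each CKD column, and under the heart myosin Myh6 362529, 443278 and 474768 against 0, 0 and 1. The 9 ventricular muscle markers had percentiles of 99.8 to 100 in the sham columns, and a median percentile of 26.7 in the CKD columns. The CKD values therefore do not belong to these gene names, and no member was compared between CKD and sham. All values below are from the 3 sham hearts, whose columns summed to 10480788, 10474487 and 12669724 counts.

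Sequences just before the annotated start of 3 members are shown because they hold motifs searched here, those of NRF-1 and GABP and the cyclic AMP response element. Each is the 100 bases before the RefSeq start (GRCm38.p6), read 5′ to 3′ on the gene's strand. They were matched by symbol and come from a build other than the mm9 named for the counts. In Ppara, at chr15:85735676-85735775 on the + strand, capitals mark the core of the NRF-1 motif (CGCATGCG). In Tfam, at chr10:71238045-71238144 on the − strand, they mark a GABP motif of the ETS type (CCGGAAG). In Ppargc1a, at chr5:51567726-51567825 on the − strand, they mark the core of the cyclic AMP response element (TGACG), here on the opposite strand.
Ppara: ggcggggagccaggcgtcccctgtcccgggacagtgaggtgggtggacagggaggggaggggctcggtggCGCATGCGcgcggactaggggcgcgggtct
Tfam: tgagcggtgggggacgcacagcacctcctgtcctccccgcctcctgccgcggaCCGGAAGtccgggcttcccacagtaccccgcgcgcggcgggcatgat
Ppargc1a: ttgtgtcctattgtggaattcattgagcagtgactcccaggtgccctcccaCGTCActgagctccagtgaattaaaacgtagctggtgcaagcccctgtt

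The marked motifs begin 30 bases before the start in Ppara, at position -30, and at positions -47 and -49 in Tfam and Ppargc1a, counted so that -1 is the last base before the start. Both strands of all 32851 RefSeq promoter windows, each reaching from 250 bases before a start to 50 after it, were searched for these letters and for the core of the ERR motif (AAGGTCA). The NRF-1 core was in 1.87% of all windows, the GABP motif in 8.86%, the ERR core in 4.72% and the cyclic AMP core in 20.8%. Of the 16 windows listed for 9 of the members, 1 held the NRF-1 core, 1 the GABP motif, 1 the ERR core and 4 the cyclic AMP core. The ERR core lay in Rxra, at position -49 of the second of its 2 windows. None of the 7 windows of the ERR genes held it in these letters. A match is a description of letters and not a measured binding site.

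Levels are given as CPM, the count divided by the total of its column and multiplied by 1000000. Because long transcripts yield more reads, genes are compared with each other in CPM per kilobase of annotated exon. In such whole-tissue samples, fewer cells of a type and less RNA per cell cannot be told apart. All 10 members averaged at least 10 CPM, as did 8864 of all 17447 rows, and 3 members reached 100 CPM. Fewer than 1720 rows reached 100 CPM, since Rxra, at 99.0 CPM, ranked 1720 among all rows. In CPM per kilobase they stood between percentile 63.9 (Pparg) and 93.0 (Esrra) of the 16856 rows with an annotated length, with a median percentile of 80.8. Members with the highest values per kilobase were Esrra at 34.3 ± 3.70, Ppara at 29.0 ± 5.17 and Ppargc1a at 22.3 ± 6.88 CPM per kilobase (SD, n = 3). Rxra followed at 18.1 ± 0.253, Ppargc1b at 13.1 ± 3.15, Esrrg at 11.1 ± 1.24, Tfam at 10.3 ± 0.495 and Esrrb at 8.95 ± 2.06. Ppard at 5.44 ± 0.107 and Pparg at 4.92 ± 0.422 CPM per kilobase were the lowest. The place of Ppard depended on the length used. Per kilobase of coding sequence Ppard was at 31.0, above Ppargc1b at 16.9.

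**Figure D1:**
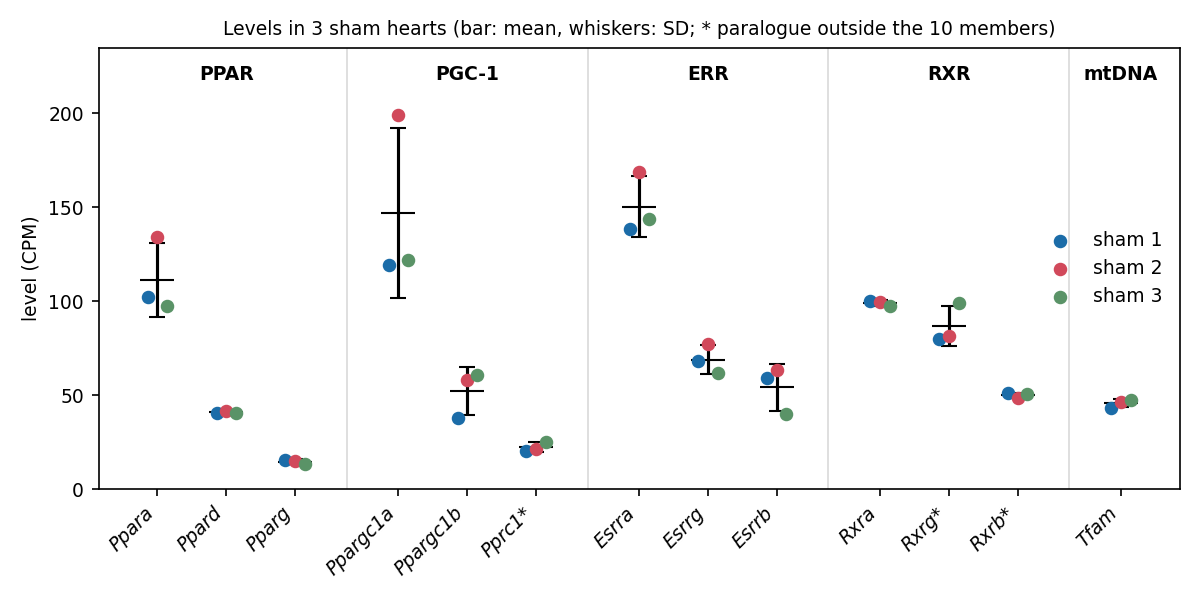
Level in CPM (vertical axis) of the 10 members and the 3 further paralogues (starred) in each of the 3 sham hearts (coloured points), with the mean (bar) and SD (whiskers), grouped by family. Ppara, Ppargc1a and Esrra lie above the other members of their families in every heart, and Ppargc1a in sham 2, at 199 CPM, is the highest single value.

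Among the fatty acid receptors, Ppara led. Its counts were 1072, 1404 and 1237 in sham 1, 2 and 3, which is 102, 134 and 97.6 CPM. Ppard, the receptor found in most tissues, had 423, 438 and 513 counts, or 40.4, 41.8 and 40.5 CPM. Pparg, the receptor that drives fat cell formation, had 162, 157 and 166 counts, or 15.5, 15.0 and 13.1 CPM. The 3 ranges did not overlap in CPM. Within each heart Ppara exceeded Ppard by a log2 ratio of 2.40 ± 0.22 per exonic kilobase (5.28-fold; SD, n = 3) and of 1.43 ± 0.22 in CPM. Ppard exceeded Pparg by 1.50 ± 0.12 in CPM but by only 0.15 ± 0.12 per exonic kilobase, since the annotated exons of Ppard add up to 7.51 kb and those of Pparg to 2.95 kb. This last difference had the same sign in 3 of 3 hearts, and it was 0.61 per kilobase of principal transcript and 1.70 per kilobase of coding sequence. The first place of Ppara thus held on every scale, while the distance between Ppard and Pparg followed the length used. With 3 hearts, a two-sided exact sign-flip permutation test cannot give a p below 0.25, so orders are given by counts of hearts and by spread, with no test.

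The coactivator Ppargc1a, which is induced by cold, exercise and fasting in muscle and fat, had 1251, 2087 and 1546 counts, or 119, 199 and 122 CPM. Sham 2 stood apart, 1.67-fold above sham 1. Its relative Ppargc1b had 396, 606 and 772 counts, or 37.8, 57.9 and 60.9 CPM, with sham 1 low and the other two hearts close together. Pprc1, the PGC-1-related coactivator of growing cells, was steadier at 20.1, 21.5 and 25.3 CPM. Per exonic kilobase Ppargc1a exceeded Ppargc1b by a log2 ratio of 0.76 ± 0.42, with 0.94 and 1.06 in sham 1 and 2 but 0.28 in sham 3. Ppargc1b exceeded Pprc1 by 1.86 ± 0.27 per exonic kilobase. The order Ppargc1a, Ppargc1b, Pprc1 was present in 3 of 3 hearts on all 4 scales.

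Of the ERR genes, Esrra was the highest. ERRα is the family member most widely expressed in oxidative tissues, and Esrra had 1451, 1768 and 1819 counts, or 138, 169 and 144 CPM. Esrrg, known for the switch of the newborn heart to oxidative metabolism, had 715, 807 and 781 counts, or 68.2, 77.0 and 61.6 CPM. Esrrb, best known from embryonic stem cells and placenta, was present at 618, 664 and 506 counts, or 59.0, 63.4 and 39.9 CPM. Esrra exceeded Esrrg by a log2 ratio of 1.62 ± 0.10 per exonic kilobase and 1.12 ± 0.10 in CPM, without overlap. Esrrg exceeded Esrrb in 3 of 3 hearts, by 0.33 ± 0.22 per exonic kilobase, but their ranges overlapped. Per kilobase of principal transcript that difference was 0.038 ± 0.22 and held in 1 of 3 hearts, so the order of these neighbours depended on the length used. Annotated exons of Esrra share 1.66% of their length with Trmt112 on the opposite strand and 2.07% with the microRNA gene Mir6990. Reads there may have been added to the Esrra counts or left out of them, since the settings and strandedness of the counting are not given.

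The order of the RXR family depended on length. Rxra had 1049, 1043 and 1235 counts, or 100.1, 99.6 and 97.5 CPM. Scaled with TMM, its levels were 98.1, 104.3 and 94.9, with sham 2 the highest. Rxrg, the family member of heart and skeletal muscle, was at 79.8, 81.4 and 99.3 CPM, with sham 3 above the others and above Rxra. Rxrb was at 51.1, 48.7 and 50.4 CPM. In CPM Rxra exceeded Rxrg by a log2 ratio of 0.20 ± 0.19 in 2 of 3 hearts. Per exonic kilobase Rxrg exceeded Rxra by 1.05 ± 0.19 in 3 of 3 hearts, as its annotated exons sum to 2.30 kb against 5.46 kb. The same was found per kilobase of principal transcript (1.02 ± 0.19), but per kilobase of coding sequence Rxra was again ahead in 2 of 3 hearts. Rxrb ranked last on all 4 scales, with Rxra above it by a log2 ratio of 0.53 ± 0.042 per exonic kilobase and 0.084 ± 0.042 per kilobase of principal transcript.

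**Figure D2:**
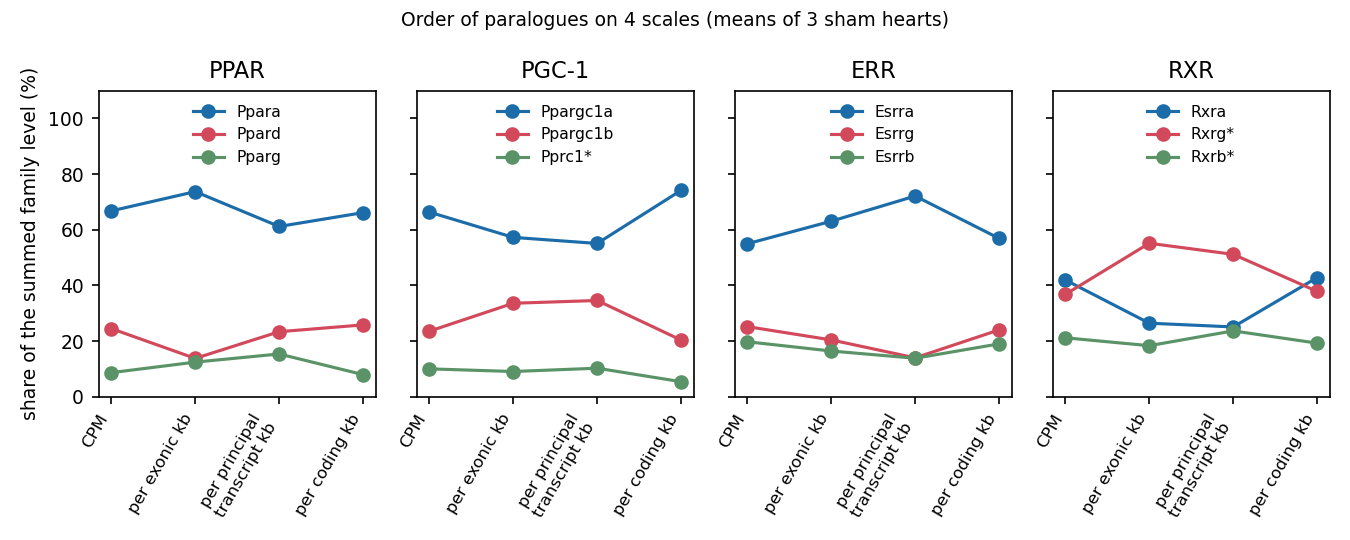
Share of each gene in the summed level of its family (vertical axis, percent, mean of 3 sham hearts) on 4 scales (horizontal axis), with lines joining the points of a gene. Ppara, Ppargc1a and Esrra lead on all 4 scales, from 55.0% to 74.2% of their families, whereas Rxra leads in CPM and per coding kilobase and Rxrg on the other two.

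Tfam had 452, 488 and 598 counts, or 43.1, 46.6 and 47.2 CPM, and differed between hearts by about its counting error (coefficient of variation, CV, 4.81% against 4.45% from counting alone) in CPM, and by 7.15% with TMM factors. It belongs to a list of 18 genes that transcribe and copy mitochondrial DNA, of which 17 reached 1 CPM on average and 13 reached 10 CPM. Of all 17447 rows, 12491 reached 1 CPM and 8864 reached 10 CPM. The list had a median of 5.90 CPM per kilobase, against 2.37 for all rows with a length. Its highest members in CPM per kilobase among those named by rule were Lonp1, a mitochondrial protease that degrades TFAM, at 51.1 ± 4.06, and Tfb2m, which melts the mitochondrial promoter with TFAM, at 22.9 ± 3.34. Polg, the catalytic subunit of the mitochondrial DNA polymerase, was at 7.17 ± 0.359 CPM per kilobase. The lowest in CPM was Mterf1a, a transcription termination factor, with 9, 9 and 16 counts. The GABP motif seen in Tfam was in 9 of the 18 promoter windows found for this list, against 8.86% of all windows. Gabpa, the DNA-binding subunit of GABP, was at 12.0 ± 1.20 CPM per kilobase and its partner Gabpb1 at 1.74 ± 0.113. Nrf1, which encodes NRF-1, was at 1.46 ± 0.198 CPM per kilobase, or 134, 161 and 213 counts.

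The members differed in how much they varied between the sham hearts. Their CVs ran from 1.40% to 30.9% with a median of 11.0%, against a median of 9.32% over the 8864 genes at 10 CPM or more. For each member, genes between 0.5 and 2 times its mean CPM served as a reference. Ppargc1a had the largest CV, at 30.9%, and 96.1% of the 1862 genes near its level varied less. Ppargc1b (24.1%), Esrrb (23.0%) and Ppara (17.8%) also varied more than 92.4%, 91.9% and 89.3% of their reference genes. Counting error alone would give 2.53%, 4.27%, 4.12% and 2.86% for these 4 genes. Rxra (1.40%) and Ppard (1.97%) lay at the other end, below the 3.01% and 4.69% that counting gives on average, with 2.62% and 3.41% of their reference genes varying less. These low values belong to CPM scaling: with TMM factors the CV was 4.82% for Rxra and 6.07% for Ppard, and with DESeq2 size factors 5.19% and 6.41%, all above the counting error. The 4 genes with the largest CVs kept high values under TMM, at 35.4% for Ppargc1a, 25.9% for Esrrb, 25.3% for Ppargc1b and 22.2% for Ppara.

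**Figure D3:**
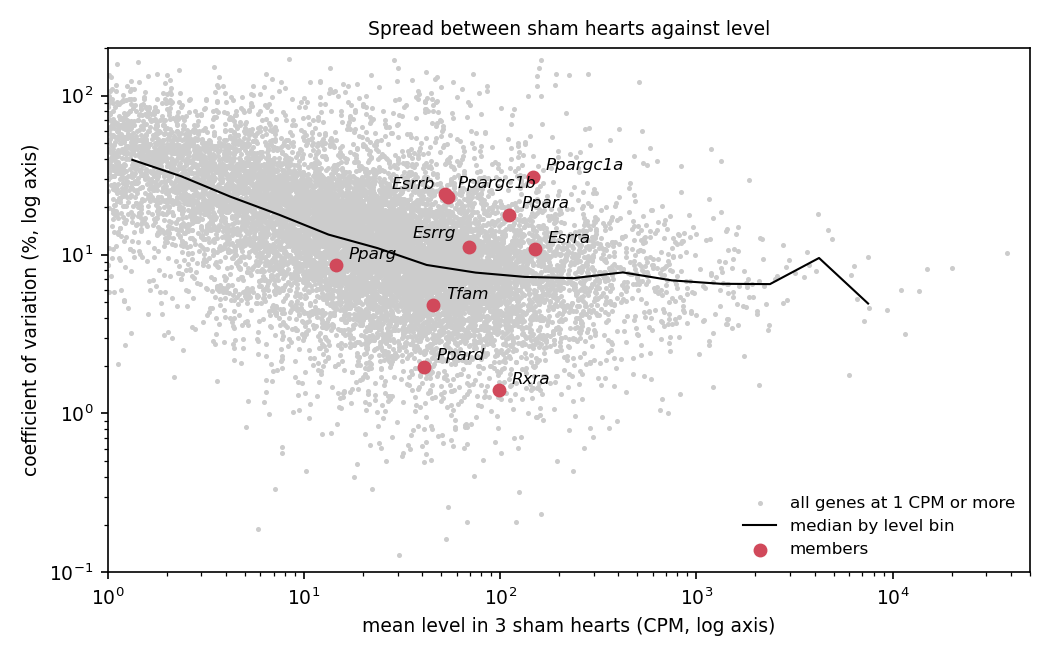
Coefficient of variation over the 3 sham hearts (vertical axis, percent, log axis) against mean level (horizontal axis, CPM, log axis) for all genes at 1 CPM or more (grey), with the median by level bin (line) and the 10 members (red). Ppargc1a, Ppargc1b, Esrrb and Ppara lie above the line and Ppard and Rxra below it, at 1.97% and 1.40% in CPM against 6.07% and 4.82% with TMM factors, which are not drawn.

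In CPM, 6 of the 10 members were highest in sham 2 (Ppara, Ppard, Ppargc1a and the 3 ERR genes) and 0 were lowest there, while of all genes at 10 CPM or more 23.5% were highest and 45.6% lowest in sham 2. Scaling with TMM factors moved sham 2 up against the others, from a median log2 ratio over genes of -0.068 to 0.038 against sham 3. All 10 members were then highest in sham 2, as were 41.2% of all genes. The heart with the highest value thus changed with the scaling for Pparg, Ppargc1b, Rxra and Tfam, and for Ppard the lowest heart changed from sham 1 to sham 3. The lead of sham 2 in Ppargc1a was 1.67-fold over the lowest heart in CPM and 1.78-fold with TMM.

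Tissue composition differed between the same hearts. Of the 9 markers listed as ventricular, 8 were highest in sham 2, while Myl2 was highest in sham 1. Myl2 was at 11812, 10810 and 10565 CPM in sham 1, 2 and 3. Summed over the list, the share was 10.7%, 11.6% and 10.4% in the same order. Whether these markers separate ventricular from atrial muscle was not tested. All 7 fibroblast markers at 10 CPM or more, 6 of 6 macrophage and 7 of 8 endothelial markers were lowest in sham 2. The 5 atrial markers took 0.242%, 0.00685% and 0.0449% of the counts in sham 1, 2 and 3, and the atrial light chain Myl4 had 6000, 25 and 1269 counts. The part of these differences in the levels of the members was not tested.

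Pparg was set beside the fat cell markers. The fat cell hormone Adipoq, named after its values were seen, had 30, 2 and 27 counts in the 3 hearts. Car3, an enzyme abundant in fat cells, had 229, 6 and 175 counts, and the complement factor Cfd, also known as adipsin, had 94, 6 and 138. Fabp4, which capillary endothelium also expresses, had 5659, 6400 and 6969 counts, and Lipe, the hormone-sensitive lipase that muscle also holds, 701, 743 and 1074. Lep, which encodes leptin, was at 0, 0 and 2 counts. Of the 10 fat cell markers 7 averaged at least 1 CPM, and the summed list took 0.0648% to 0.0684% of the counts, most of it from Fabp4. In sham 2 Adipoq, Car3 and Cfd had 6 counts or fewer. Fabp4 was highest there, at 611 CPM against 540 in sham 1 and 550 in sham 3, and Lipe was lowest in sham 1. Pparg was at 15.0 CPM in sham 2 against 15.5 in sham 1 and 13.1 in sham 3. Scaled with TMM, Pparg was at 15.2, 15.7 and 12.8 in sham 1, 2 and 3. The part of fat cells in the level of Pparg was not tested.

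Genes known as PPAR targets in muscle and liver were abundant. Of 28 listed, 27 had a mean of 10 CPM or more and 18 of 100 CPM or more, with a median of 67.4 CPM per kilobase. Of all 17447 rows, 8864 reached 10 CPM and fewer than 1720 reached 100 CPM. The fatty acid binding protein Fabp3 was at 5038 ± 906 CPM per kilobase, the lipoprotein lipase Lpl at 714 ± 69.0, the fatty acid transporter Cd36 at 536 ± 35.1 and Hadha, a subunit of the trifunctional protein of β-oxidation, at 241 ± 30.5. Fgf21, the fasting hormone made mainly by liver, had 0, 0 and 2 counts. Of the 27 genes 21 were lowest in sham 1, against 28.2% of all genes at 10 CPM or more. In CPM 13 were highest in sham 2 and 12 in sham 3, against 23.5% and 39.6% of all genes. With TMM factors 16 were highest in sham 2 and 9 in sham 3, against 41.2% and 29.8%. The members with the largest spread were Angptl4, a secreted inhibitor of lipoprotein lipase, with 75, 55 and 327 counts, and the acyl-CoA thioesterase Acot1, with 51, 170 and 210. In CPM Angptl4 was lowest in sham 2, as were 45.6% of all genes at 10 CPM or more, and highest in sham 3, as were 39.6%.

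Known targets of ERR and PGC-1 were higher still as a group. All 22 exceeded 100 CPM, with a median of 371 CPM per kilobase. Fewer than 1720 of all 17447 rows reached 100 CPM. The ADP/ATP carrier Slc25a4 stood at 2705 ± 229 CPM per kilobase, the mitochondrial creatine kinase Ckmt2 at 1996 ± 184 and the ATP synthase subunit Atp5b at 1694 ± 64.8. The angiogenic factor Vegfa was the lowest in CPM, at 264 ± 35.1. In CPM 16 of the 22 were highest in sham 2, the heart with the highest Ppargc1a, Esrra, Esrrb and Esrrg, and with TMM 20 were, against 23.5% and 41.2% of all genes. Their median CV was 7.52%. Pdk4, the kinase that shuts off pyruvate oxidation and a gene of both target lists, had the largest CV at 37.6%. It had 5620, 3503 and 9348 counts, or 536, 334 and 738 CPM, and was lowest in sham 2. Of all genes at 10 CPM or more, 45.6% were lowest there in CPM and 28.8% with TMM.

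**Figure D4:**
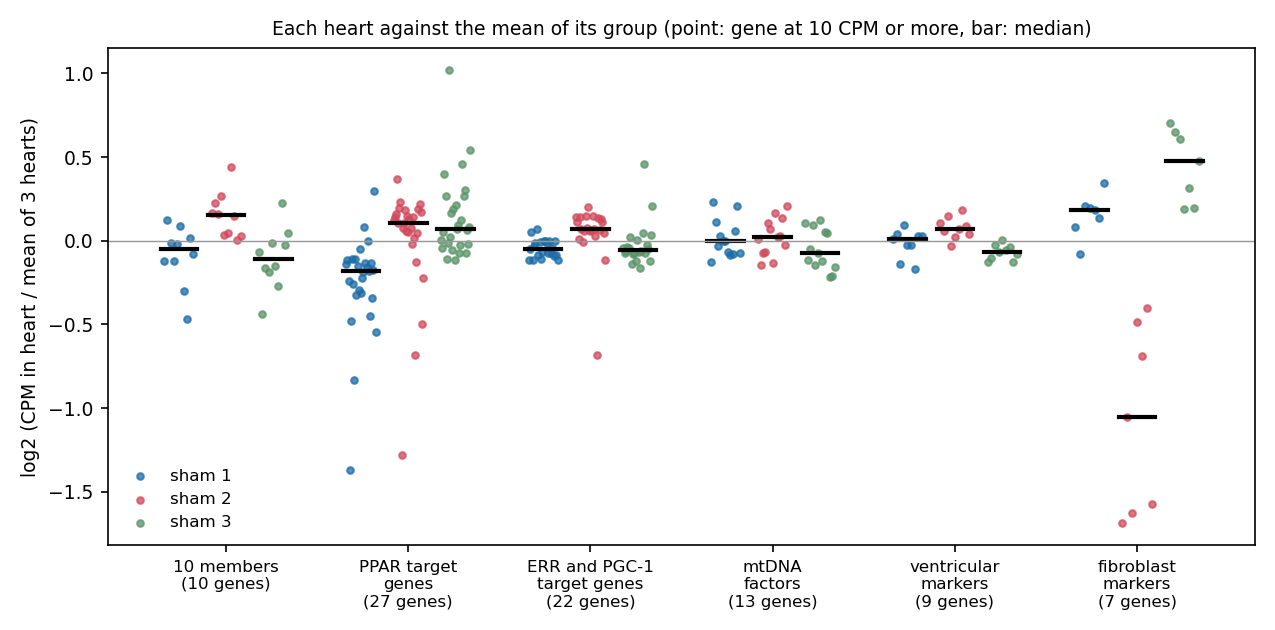
Level of each gene at 10 CPM or more in a sham heart relative to its mean over the 3 hearts (vertical axis, log2 ratio of CPM), for the 10 members, 3 related gene lists and 2 marker lists (horizontal axis), with colours for hearts and bars for medians. The members and the 22 ERR and PGC-1 target genes tend to lie highest in sham 2, 21 of 27 PPAR target genes lie lowest in sham 1, and all 7 fibroblast markers lie lowest in sham 2.

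Partners that act on the receptors were all measured. All 11 coactivators averaged at least 10 CPM, with Lpin1, a lipid phosphatase that binds PGC-1α, at 31.2 ± 0.677 CPM per kilobase and the acetyltransferase Kat2b at 25.5 ± 0.0823. Kat2b was at 124, 124 and 125 CPM, a CV of 0.32% that lies below the 2.69% from counting alone. Of the 8 corepressors and PGC-1 inhibitors all exceeded 10 CPM, a level reached by 8864 of all 17447 rows. Mybbp1a, a repressor of PGC-1α, was at 15.6 ± 0.678 CPM per kilobase and the scaffold Ncor1 at 12.7 ± 1.17. Nrip1, a corepressor of ERR and PPAR genes, had 353, 259 and 379 counts. In CPM it was lowest in sham 2, as were 45.6% of all genes at 10 CPM or more. Among the 14 regulators upstream of PGC-1, Mef2d, a transcription factor of the MEF2 family known to act on Ppargc1a, was at 40.2 ± 2.40 CPM per kilobase. Prkaa2, the main catalytic AMP kinase subunit of muscle, was at 26.1 ± 2.88 against 5.06 ± 0.735 for its paralogue Prkaa1. The deacetylase Sirt1, which activates PGC-1α, was lowest in CPM at 17.6 ± 0.251. Its CV of 1.43% also lay below the 7.15% from counting alone.

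For 6 genes, the 3 rows with the most similar values were found among 12231 other named genes at 1 CPM or more, by Euclidean distance in log2(CPM + 0.5) over the 3 sham hearts. Nearest to Ppara were Tfdp2, Amd1 and Slc41a1, at distances of 0.048, 0.12 and 0.14. Nearest to Ppargc1a were Ide, Dmd and Fitm2, at 0.20, 0.34 and 0.35, and Ide, at 121, 174 and 124 CPM, was also highest in sham 2. Esrra was closest to Fbxo31, Ubr2 and Fitm2 (0.029, 0.031 and 0.055), Rxra to Higd2a, Agpat1 and Smim7 (0.038, 0.038 and 0.052), Pparg to Nme6, Six5 and Zmynd19 (0.050, 0.055 and 0.059) and Tfam to Fbrs, Ubn1 and Sin3b (0.055, 0.060 and 0.060). Over only 3 hearts and so many rows, such matches say nothing of shared control.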

How the data were processed

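The authors deposited whole-number counts, with gene symbols as rows and 1 column per heart, matched to samples by title. Trimmomatic, HISAT2, HTSeq and DESeq are named with build mm9, per the submitters' processing notes. Versions, settings, annotation and strandedness: not given in the sources used here. CPM was the count divided by the column total times 1000000. Exonic lengths were unions of GENCODE M21 exons (GRCm38), used by symbol for 16856 rows, in place of the authors' own annotation, and 2 further length scales were added after the data were seen. Scaling alternatives were TMM (edgeR 4.0.16) and DESeq2 1.42.0 size factors among the sham columns. Counting CV was the square root of the mean of 1/count. A gene at 0 counts allows up to 3 counts, or 0.237 to 0.286 CPM in sham, for counting error only. Scripts were tested on simulated data. Genes were named by rule: all members, the further paralogues, the 4 highest in CPM of each list, the lowest, up to 2 with the largest CV among those at 10 CPM or more, and the 3 nearest rows of 6 members. Members, lists and rules were chosen with earlier results of these data known. Of 196 distinct listed symbols, Nr1i2 was not found in the table. No group comparison was tested. Some genes that the rule names are not reported here.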

Additional observations from a re-analysis of the deposited data

How the results depend on the processing

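Under TMM and DESeq2 size factors each of the 10 mean levels stayed within its SD. Both sets of factors were centred over the 3 hearts, which holds such means nearly fixed, so this says little about stability. The means also stayed within their SD under omission of 1 heart, which is a property of means of 3 values and says nothing about stability. Settings that moved a log2 ratio of neighbouring paralogues were all changes of length scale. Scaling factors cancel in a ratio within a heart, and omission of 1 heart cannot move a mean of 3 values by its SD. Unchanged ratios under those settings therefore say nothing about stability. Per exonic kilobase the ratio was 2.40 for Ppara to Ppard, 0.15 for Ppard to Pparg, 0.76 for Ppargc1a to Ppargc1b, 1.86 for Ppargc1b to Pprc1, 1.62 for Esrra to Esrrg and 1.58 for Rxrg to Rxrb. Per principal transcript kilobase, a scale added after seeing the data, it was 0.61 for Ppard to Pparg, 0.66 for Ppargc1a to Ppargc1b, 1.72 for Ppargc1b to Pprc1, 2.36 for Esrra to Esrrg, 0.038 for Esrrg to Esrrb and 1.10 for Rxrg to Rxrb. Per coding kilobase, also added later, it was 1.70 for Ppard to Pparg, 1.88 for Ppargc1b to Pprc1, 1.24 for Esrra to Esrrg and 0.97 for Rxrg to Rxrb. The ratio of Rxra to Rxrg reversed to -1.05 per exonic and -1.02 per principal transcript kilobase. These shifts follow from the lengths alone. The CV of Ppargc1a fell to 1.56% without sham 2, that of Ppara to 3.29% without sham 2, that of Esrrb to 5.12% without sham 3 and that of Ppargc1b to 3.66% without sham 1. In each case the heart left out was the one farthest from the others, so the fall follows from that choice. Leaving out either of the other hearts raised the CV of each gene, for Ppargc1a to 34.0% without sham 1 and 35.5% without sham 3. No paired analysis was possible because no test was made and the CKD columns could not be used.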

Other observations

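RXR pairs with many receptors besides the PPARs, and 12 of 13 listed partners were found. Thra, the thyroid hormone receptor that dominates in heart, was at 128, 94.2 and 115 CPM in sham 1, 2 and 3. The liver X receptor gene Nr1h2 was at 54.3, 52.1 and 50.2 CPM, and its paralogue Nr1h3 ran 18.0, 21.6 and 24.7. Rarg, a retinoic acid receptor gene, was at 32.9, 25.3 and 31.9 CPM. Nr4a1, an immediate early nuclear receptor, had 1442, 268 and 111 counts, and Nr1i3, the liver receptor CAR, had 0 counts in every heart. Cidea, a lipid droplet protein known from brown fat and listed here among its markers, had 228, 316 and 380 counts, while Ucp1 and Elovl3, the other two markers of that list, had 0 in each heart. Of 7 skeletal muscle markers 1 reached 1 CPM (Tnni2, with 13, 12 and 24 counts), and the fast myosins Myh1, Myh2 and Myh4 had 0 counts in every heart.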
